A study of Mus musculus with 2 samples.

Results

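The kynurenine pathway enzymes are 10 of the 23284 genes counted in these data: Tdo2, Ido1, Ido2, Afmid, Kmo, Kynu, Haao, Acmsd, Qprt and Aadat. They were chosen by their place in the pathway with the counts and the ratio between these libraries already known, so both are given as a description. They were found by gene symbol in the count tables of a control library and a knockdown library, and all 10 symbols were present in both. RNA came from primary hepatocytes, that is liver cells isolated from the animal and cultured, of C57BL/6 mice. Each group was 1 library from cells pooled from 5 mice, infected 24 h after plating with control lentivirus or with lentivirus carrying an shRNA against JMJD3, a histone demethylase encoded by Kdm6b. The virus was left for 48 h, and both groups then had 6 h in 5 mM glucose with 10 µM forskolin, which switches on adenylyl cyclase, as a model of fasting. No group without virus or without forskolin was used here, so every value describes infected, forskolin-treated cells. With 1 library per group there was no spread between replicates and no test of the conditions.

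The kynurenine pathway is the main route of tryptophan breakdown, and most of it runs in the liver. Tdo2 opens the indole ring of tryptophan in hepatocytes. Ido1 and Ido2 catalyse the same step, Ido1 mainly in other cells, and Ido1 is known for its induction by interferon gamma. Afmid then releases kynurenine, which Kmo and Kynu carry on towards 3-hydroxyanthranilate and which Aadat and other aminotransferases turn into kynurenate. The product of Haao either cyclises to quinolinate, which Qprt uses to build NAD, or is diverted by Acmsd to the glutarate route and complete oxidation.

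The control library held 11099562 counts and the knockdown library 18334366, which is 1.65-fold deeper. Levels are in CPM, the counts of a gene divided by a TMM-corrected library size, and levels of different genes are compared as CPM per kilobase of exon. A gene was taken as measured when its mean CPM over the libraries was at least 1, which left 12607 genes. Ratios are knockdown over control, and their 95% intervals are exact ones from the split of the counts (Clopper-Pearson), which cover counting error only. A gene passed the size rule as lower or higher when its ratio was at least 1.5-fold from 1 and the interval excluded 1. Kdm6b had 1019 counts in control and 598 in knockdown, 90.7 against 33.0 CPM. The hepatocyte markers Alb, Trf and Fgb were abundant, but some markers of the labelled cell type were near 0 in both libraries. Cyp2e1 had 0 counts in each library and Fabp1 had 2 in each.

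Transcripts of the enzyme that opens the pathway and of 3 enzymes further down were lower in the knockdown library. Of the 10 enzymes 7 were measured. Among these, Tdo2, Acmsd, Aadat and Kynu passed as lower, 0 passed as higher, and Kmo, Qprt and Afmid passed in neither direction. Over all measured genes 12.8% passed as lower and 15.3% as higher. The median log2 ratio of the 7 enzymes was -0.76, against a median of 0.00 over all measured genes, whose central 90% lay between -1.15 and 1.21. The enzymes did not move as a block, since their log2 ratios ran from -4.06 for Tdo2 to 0.57 for Afmid. Beside this, 6 of 9 measured hepatocyte markers also passed as lower, with summed levels of all 12 markers at 10750 CPM in control and 6326 CPM in knockdown. These markers diverged: Trf, the most abundant, was at 4282 and 4254 CPM, while Fgb, which carried most of the difference in the sum, was at 3987 and 846 CPM and Cps1 had a log2 ratio of -5.85. Fewer hepatocytes and less RNA per hepatocyte cannot be told apart in such bulk samples, and the part of either in these results was not tested.

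**Figure D1:**
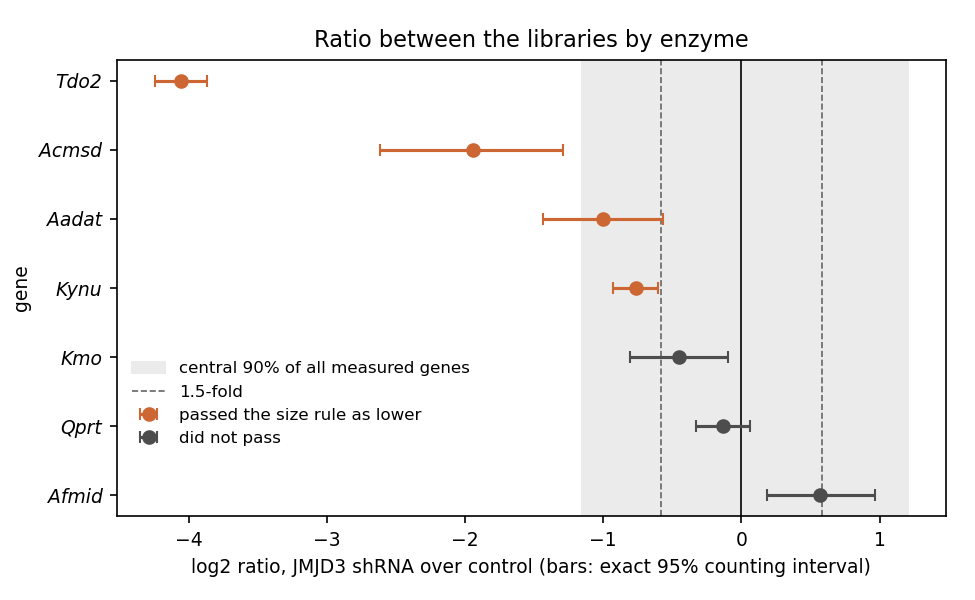
Log2 ratio of JMJD3 shRNA over control (x axis) for the 7 measured enzymes (y axis), with bars for the exact 95% counting interval, dashed lines at 1.5-fold and a grey band for the central 90% of all measured genes. Tdo2 at -4.06 and Acmsd at -1.94 lie below the band, and Afmid at 0.57 is the only point to the right of 0.

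Tdo2, the heme enzyme that commits tryptophan to breakdown in the liver, had 2652 counts in control and 257 in knockdown. In CPM it stood at 236 in control and 14.2 in knockdown. The log2 ratio was -4.06 (-4.25 to -3.87), so the transcript was 16.6-fold lower, with an interval of 14.6 to 19.0. Of the 12607 measured genes 61 had a lower ratio. Its level per kilobase stood at percentile 96.5 of the measured genes in control and at percentile 41.6 in knockdown. In mm9 Tdo2 spans 81762336 to 81779650 of chromosome 3, on the minus strand, and the files give it 12 exons.

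The other enzymes of the first step were nearly absent from these cells. Ido1 had 0 counts in control, where 3 counts, taken as a floor, are 0.267 CPM, and 7 counts or 0.387 CPM in knockdown. Set against that floor the knockdown value of Ido1 was 1.45-fold. This is not a lower bound, since the interval of the counts began at a ratio of 0.895 and so included 1. Ido2, the paralog next to Ido1 on chromosome 8, had 1 count in control and 3 in knockdown, which gives no fold. In the knockdown library Tdo2 was thus still the most abundant transcript of the first step, at 8.69 CPM per kilobase against 0.249 for Ido1 and 0.0550 for Ido2. Neither Ido1 nor Ido2 reached 1 CPM in either library.

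The promoters of Tdo2 and Aadat are shown because both transcripts passed as lower. RefSeq windows on GRCm38.p6 were found for 7 of the 10 enzymes, with none for Ido1, Ido2 and Kynu. The 250 bases before the annotated start are printed 5′ to 3′ on the strand of the gene, and capitals mark a match to a searched motif. The window of Tdo2 is chr3:81975729-81975978 on the minus strand and that of Aadat chr8:60505874-60506123 on the plus strand.
Tdo2: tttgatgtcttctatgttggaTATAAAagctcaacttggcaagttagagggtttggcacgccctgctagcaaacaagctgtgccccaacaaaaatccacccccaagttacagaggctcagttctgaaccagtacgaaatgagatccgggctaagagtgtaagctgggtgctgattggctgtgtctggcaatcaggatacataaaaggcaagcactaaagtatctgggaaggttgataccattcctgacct
Aadat: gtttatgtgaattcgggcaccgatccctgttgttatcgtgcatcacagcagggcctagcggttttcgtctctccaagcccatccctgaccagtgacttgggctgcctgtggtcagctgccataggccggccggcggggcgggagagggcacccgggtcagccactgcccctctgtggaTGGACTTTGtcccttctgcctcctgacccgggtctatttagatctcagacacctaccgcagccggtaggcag

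These 2 windows had no searched motif in common. The motifs, sought on both strands, were the cyclic AMP response element TGACGTCA and its core TGACG, which lies inside it, the C/EBP motif TTGCNNAA and the glucocorticoid receptor core TGTTCT. The TATA box TATAAA, the HNF1 core GTTAAT, the HNF4 motif CAAAGTCCA and the interferon-stimulated core TTTCNNTTT completed the search. Tdo2 held only TATAAA, 229 to 224 bases before the start, a motif present in 12.4% of 32851 RefSeq windows of the same length. In Aadat the HNF4 motif was found on the opposite strand, 72 to 64 bases before the start, against 0.384% of all windows. A match is a description of letters and not evidence of binding.

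The steps from formylkynurenine to 3-hydroxyanthranilate gave values on each side of 1. Afmid, the formamidase that releases kynurenine, had 79 counts in control and 189 in knockdown. At 7.03 CPM in control and 10.4 CPM in knockdown its log2 ratio was 0.57 (0.18 to 0.97). This was 1.49-fold, just under the 1.5-fold limit, and Afmid was the only measured enzyme with a ratio above 1. With the exon-length trend of the ratios removed it passed as higher, at 0.64. Afmid lies on the plus strand of chromosome 11 from 117687233 to 117701222 in mm9, where 88 bp of its exons overlap Tk1 on the other strand.

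Kmo, the FAD-dependent hydroxylase of the outer mitochondrial membrane, had 125 counts in control and 147 in knockdown, 11.1 against 8.12 CPM. Its log2 ratio of -0.45 (-0.81 to -0.10) excluded 1 but did not reach 1.5-fold, and with counts divided by 2 for read pairs the interval, -0.96 to 0.06, included 1. Kynu, the pyridoxal phosphate enzyme that makes 3-hydroxyanthranilate, had 641 and 608 counts, 57.0 CPM in control and 33.6 CPM in knockdown. The log2 ratio of Kynu was -0.76 (-0.93 to -0.60), or 1.70-fold lower. Kmo lies on chromosome 1 from 177562324 to 177590984 and Kynu on chromosome 2 from 43410849 to 43538235 in mm9.

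At the branch between NAD synthesis and oxidation the enzymes parted. Acmsd, the decarboxylase that draws intermediates away from quinolinate, had 69 counts in control and 29 in knockdown, 6.14 against 1.60 CPM. Its log2 ratio was -1.94 (-2.62 to -1.29), which is 3.83-fold lower with an interval of 2.45 to 6.14. Qprt, which commits quinolinate to NAD, had 356 and 523 counts, 31.7 CPM in control and 28.9 CPM in knockdown. The interval of Qprt, -0.33 to 0.07 around -0.13, included no difference. Acmsd lies on chromosome 1 from 129625990 to 129664141 and Qprt on chromosome 7 from 134251284 to 134265543 in mm9.

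The ratio of Acmsd to Qprt transcripts within a library does not depend on how the libraries are scaled. Per kilobase it was 0.101 in control and 0.0288 in knockdown, 3.49-fold lower with an interval of 2.18 to 5.71. The same measure for Tdo2 over Afmid went from 47.9 to 1.94, and for Tdo2 over Kynu from 6.92 to 0.707. For Kynu over Kmo it went from 4.69 to 3.78, and the interval of that change, 0.945- to 1.63-fold lower, included 1. These pairs were chosen after their values were seen.

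Haao, the iron enzyme that supplies this branch, had 1 count in control and 3 in knockdown. At that depth no difference between the libraries was detectable and no fold is given. Haao shared this near absence with the liver genes Cyp2e1 and Fabp1. Its gene model spans 84230694 to 84246130 of chromosome 17 in mm9, on the minus strand, and no other counted gene overlaps it.

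Aminotransferases that make kynurenate were lower as well, with 1 exception. Aadat, the mitochondrial kynurenine and aminoadipate aminotransferase, had 103 counts in control and 83 in knockdown, 9.16 against 4.58 CPM. The log2 ratio of Aadat was -0.999 (-1.43 to -0.57). Ccbl1 and Ccbl2, the cytosolic kynurenine aminotransferase and its paralog, had log2 ratios of -1.29 (-1.56 to -1.02) and -1.26 (-1.42 to -1.09). Got2, the abundant mitochondrial aspartate aminotransferase that can also use kynurenine, was at 152 CPM in control and 160 CPM in knockdown, and its interval included 1. Counting Aadat, 3 of the 4 aminotransferases thus passed as lower. Aadat lies on chromosome 8 from 62984921 to 63024474 in mm9.

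The order of the enzymes by level differed between the libraries. In control Tdo2 led with 144 CPM per kilobase, followed by Qprt with 26.5, Kynu with 20.9, Aadat with 5.15, Kmo with 4.45, Afmid with 3.01 and Acmsd with 2.67. Neighbours in that order whose counts did not separate them were Aadat and Kmo, and Afmid and Acmsd. In knockdown Qprt led with 24.1 CPM per kilobase, followed by Kynu with 12.3, Tdo2 with 8.69, Afmid with 4.48, Kmo with 3.25, Aadat with 2.58 and Acmsd with 0.695. There only Kmo and Aadat were not separated by their counts. Tdo2 made up 69.8% of the summed level of the 7 enzymes in control and 15.5% in knockdown, while Qprt went from 12.8% to 43.0%. The summed level was 207 CPM per kilobase in control and 56.1 in knockdown. Without Tdo2 it was 62.6 and 47.4, a ratio of 0.757, so most of the difference in the sum came from Tdo2.

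**Figure D2:**
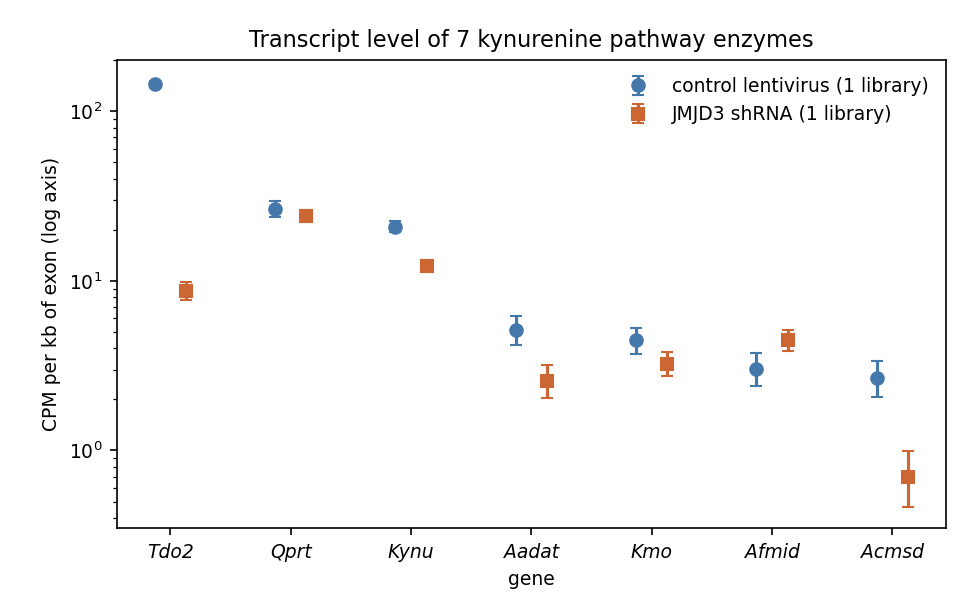
Level in CPM per kilobase of exon (y axis, log scale) of the 7 measured enzymes (x axis, ordered by the control level) in the control library (circles) and the JMJD3 shRNA library (squares), with exact Poisson 95% intervals for counting error. Tdo2 goes from 144 to 8.69, from the top of the control order to the third place in knockdown, while Qprt goes from 26.5 to 24.1.

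Downstream of the pathway, in the glutarate branch and in NAD synthesis, only 1 gene of each list passed the size rule, though both median log2 ratios were negative. With 6 measured genes in each list, this is near the 12.8% of all measured genes that passed as lower. In the glutarate branch after Acmsd, 1 of 6 measured genes met the size rule, in the lower direction, and the median log2 ratio was -0.29. That gene was Aldh8a1, the dehydrogenase that acts on the product of Acmsd, with 381 counts in control and 36 in knockdown, 33.9 against 1.99 CPM. Its log2 ratio of -4.09 (-4.63 to -3.60) was close to that of Tdo2. The abundant Dlst and Dld, subunits shared by the oxoacid dehydrogenases, were at 0.11 and -0.19. Acmsd and Aldh8a1, which act in succession, thus both passed as lower.

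NAD synthesis genes other than Qprt had a median log2 ratio of -0.46, and 1 of 6 passed, as lower. Nampt, which salvages nicotinamide, was at -0.60 (-0.69 to -0.51), next to the limit of the size rule. The kinase Nadk, at 222 CPM in control and 218 CPM in knockdown, was at -0.02. With the DESeq2 scaling 0 of these genes passed and with library totals alone 2 did.

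Other routes of tryptophan had their own large differences. In the serotonin and indole list 2 of 3 measured genes passed as lower. Ddc, the aromatic amino acid decarboxylase, went from 1036 counts in control to 82 in knockdown. Its log2 ratio was -4.35 (-4.69 to -4.02). The monoamine oxidase Maob was at -1.01 (-1.14 to -0.87) and Maoa at 0.17. The tryptophan hydroxylases Tph1 and Tph2, which open the serotonin route, had 0 counts in both libraries.

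Among genes of tryptophan transport and charging, 1 of 6 measured passed as lower, 1 as higher, and the median log2 ratio was 0.22. These counts are near the shares over all measured genes, 12.8% lower and 15.3% higher. Slc16a10, a facilitative carrier of aromatic amino acids, was at 281 CPM in control and 33.9 CPM in knockdown (log2 ratio -3.05, interval -3.18 to -2.92). Slc7a5, the light chain of the large neutral amino acid exchanger, was higher at 0.84 (0.64 to 1.04), and its partner Slc3a2 was at -0.05.

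Genes that supply the cofactors of these enzymes had a median log2 ratio of -0.52, with 4 of 13 passing as lower and 1 as higher. Alas1, the rate-limiting enzyme of heme synthesis, was lowest at -1.08 (-1.18 to -0.98), and Cpox, a later enzyme of the same route, highest at 0.75. The abundant Fech and Hmox1, which complete and degrade heme, were at -0.14 and -0.56. With library totals alone 5 of 13 passed as lower.

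Kynurenine and kynurenate are known ligands of the aryl hydrocarbon receptor. In that list, where the median log2 ratio was -0.25, lower calls numbered 3 of 7 measured genes and higher calls 1. The receptor Ahr and its partner Arnt were at -0.25 and -0.24. The target Cyp1a1 was lowest at -1.13 (-1.47 to -0.79) and the target Tiparp highest at 1.25 (1.02 to 1.49), so the targets did not share a direction.

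Known regulators of the first step also differed between the libraries. Tdo2 is a classical glucocorticoid-induced gene, and the glucocorticoid receptor list was split, with 3 of 9 measured genes lower, 3 higher and a median log2 ratio of -0.17. Tat, which breaks down tyrosine, was lowest at -4.19 (-4.27 to -4.11), while Fkbp5, a chaperone induced by the receptor, was highest at 0.87 (0.60 to 1.14), and the abundant Lcn2 was at -0.48. The transcript of the receptor, Nr3c1, named with its value already seen, was at 0.84 (0.74 to 0.93).

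In the interferon gamma list, which includes known inducers of Ido1, the median log2 ratio was 0.23 and 3 of 10 genes passed as higher, against 0 as lower. Ifngr1, a receptor chain, was at 1.05 (0.98 to 1.13), and the chemokine Cxcl10 at 1.12. Liver transcription factors had a median log2 ratio of -0.70, with lower calls in 7 of 12 and higher calls in 0. Onecut1 was lowest at -1.82 (-2.02 to -1.62), the abundant Cebpb was at -0.71, Hnf4a at -0.57 did not pass, and Dbp was highest at 0.37. The part of any of these regulators in the enzyme values was not tested.

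**Figure D3:**
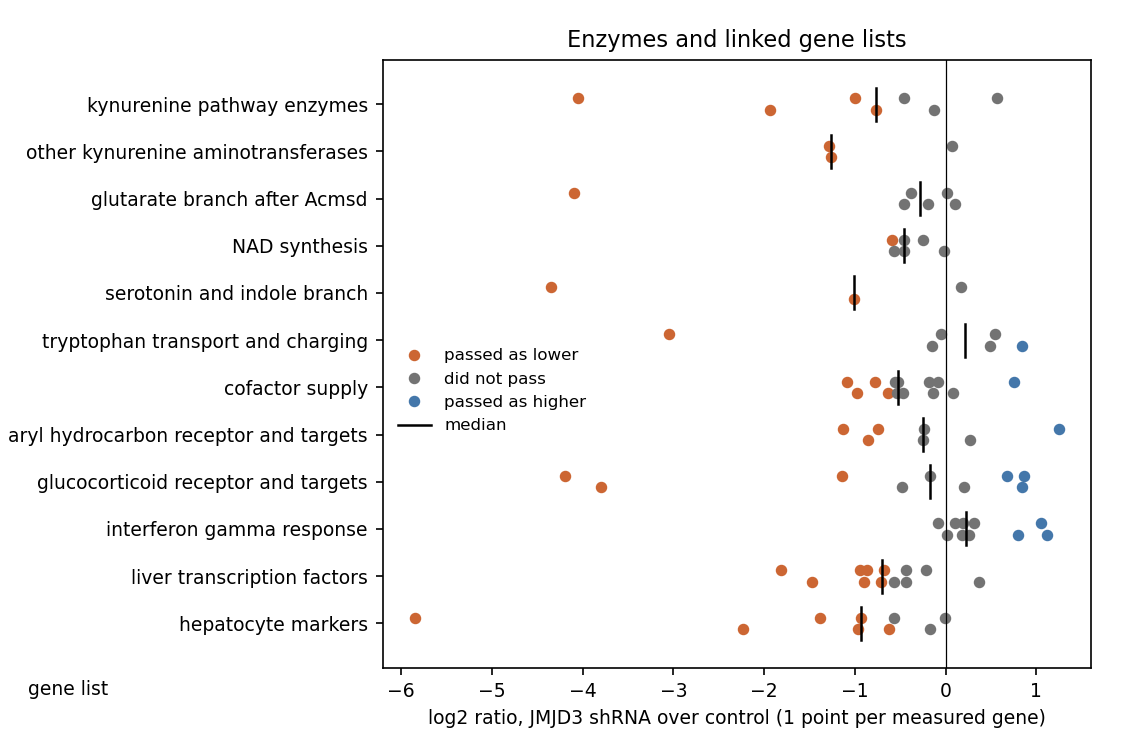
Log2 ratio of JMJD3 shRNA over control (x axis) for each measured gene of the kynurenine pathway and of 11 linked lists (y axis); 1 point is 1 gene, coloured by the size rule, and the black bar is the median of the list. Single far-lower genes appear in several lists, such as Tdo2 at -4.06, Aldh8a1 at -4.09 and Tat at -4.19, while the interferon gamma list has no gene that passed as lower.

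Markers of other cell types differed in direction from list to list. Macrophage markers had 0 of 7 measured genes lower or higher, a median of 0.06 and a summed level of 155 CPM in control and 132 CPM in knockdown, with Clec4f at 0 in both. Cd14 made up most of that sum, at 128 and 103 CPM. Of 7 dendritic cell markers only Zbtb46 was measured, at 1.13, with a summed level of 3.29 and 6.13 CPM and with Flt3 and Cd209a at 0. The summed level of blood and lymphoid markers was 3.03 and 2.71 CPM. Stellate cell markers had 3 of 8 lower, a median of -0.26 and sums of 250 and 233 CPM. They diverged, with Reln lowest at -3.74 and Des highest at 0.79. The abundant Col1a1 and Acta2 were at 0.03 and 0.41. Endothelial markers had 2 of 7 lower and 0 higher, a median of -0.20 and sums of 57.8 and 52.8 CPM. Among them Stab2 was lowest at -1.03 and Kdr highest at 0.62, so this list diverged as well. Cholangiocyte markers had 3 of 6 higher, or 1 of 6 with library totals alone, and sums of 8099 and 8432 CPM, most of it Spp1, with Krt7 highest at 1.65. The part of these cells in the enzyme values was not tested.

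The authors' deposited table gives the same division of the enzymes. It lists the 7 measured enzymes and not Ido1, Ido2 or Haao. By the authors' deposited table, 4 of these 7 have an adjusted p-value under 0.05 with a negative fold change and 0 with a positive one, where 11.8% and 14.6% of its 12838 genes do. For Tdo2 the authors' deposited table gives a fold change of -4.05 on the log2 scale and 3.85e-59 as adjusted p-value. For Acmsd the authors' deposited table gives -1.93 with 4.20e-06, for Kynu -0.76 with 0.00378 and for Aadat -0.998 with 0.00589. Kmo, Afmid and Qprt have adjusted p-values of 0.238, 0.133 and 0.740 in the authors' deposited table. No source used here names the test behind these p-values or the spread it assumed, and with 1 library per group they carry no measured spread between replicates.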

How the data were processed

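The authors deposited raw counts of reads for each gene, from featureCounts 1.4.6-p4 run on STAR alignments over exons of UCSC mm9 gene models and without use of strand, per the file headers. The recorded command has no option for read pairs or for reads with several matches, per the file headers, so each read of a pair was counted on its own and intervals are too narrow for pairs and PCR copies. The submitters' processing notes also name Trimmomatic 0.36, STAR 2.5.3a and edgeR. The authors' deposited table holds a log2 fold change, an average log2 CPM, p-values and adjusted p-values, with the test not given in the sources used here. Its fold change had the sign of knockdown over control in 12824 of 12824 genes compared.

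Counts were scaled to TMM-corrected library sizes (edgeR 4.0.16, R 4.3.3). Ratios had no pseudocount. Where a library had 0 counts, 3 counts served as the floor. The ratio procedure was tested on data simulated with Poisson counting error only. That test could not show how the intervals fare with read pairs, PCR copies or spread between replicates. No test could be made with 1 library per group. Scaling, filters, the size rule, exon length and counting of pairs were varied. Promoters came from RefSeq on GRCm38.p6, and their coordinates are not those of mm9. All members and, in each linked list, the 2 most abundant, the highest and the lowest genes were named, with every measured gene of lists of up to 5. A gene and a promoter that these rules take are not reported here. Members and lists were chosen with earlier results of these data known.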

Additional observations from a re-analysis of the deposited data

How the results depend on the processing

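The 4 enzymes that passed as lower and the 0 that passed as higher were unchanged with library totals alone, DESeq2 size factors, upper-quartile factors and counts divided by 2 for read pairs. With the exon-length trend of the ratios removed, 1 enzyme passed as higher, Afmid at 0.64. Under a 2-fold rule 2 enzymes passed as lower, Tdo2 and Acmsd, with Aadat just short of it, and 3 passed when the whole interval had to lie beyond 1.5-fold. With a minimum of 5 CPM, which leaves out Acmsd, 3 of 6 passed as lower. The 12.8% of all measured genes that passed as lower belongs to the main rule. No such share is given for these changed rules, so their counts have no background beside them. The median log2 ratio was -0.29 with no filter on low counts, since Ido1, Ido2 and Haao then enter with 0 to 7 counts. Of 35 values of single enzymes under 5 other settings 34 kept their call. Qprt went from -0.13 to 0.11 with the length trend removed. The scalings placed the median of all genes between -0.05 and 0.01. No paired analysis was possible because each group was 1 library, and no library could be left out.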

Other observations

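Genes next to the enzymes on the chromosome had ratios of their own. Kmo at -0.45 lies 6558 bp from Fh1, fumarase, which went from 4203 counts in control to 1073 in knockdown, a log2 ratio of -2.66 (-2.76 to -2.56). Opn3, nearer to Kmo on its other side at 1575 bp, was at -0.73 (-1.25 to -0.21) and passed as lower. Afmid shares 88 bp of exon with the thymidine kinase gene Tk1 on the other strand, which is 3.77% of its exon length, and the counts did not use strand. Tk1 was at 0.93 (0.46 to 1.42) and Birc5, a mitotic gene 9329 bp beyond Afmid, at 1.38 (0.93 to 1.86). Syngr2, the nearest gene on the other side of Afmid at 11633 bp, was at 0.10 (-0.04 to 0.23) and did not pass. Ctso, a cathepsin gene 1689 bp from Tdo2, was at -0.62 (-0.80 to -0.45). Acmsd shares 94 bp of exon with 2900009J06Rik, which had 2 counts in each library. Ccnt2, 6600 bp from Acmsd, was at 0.29 (0.16 to 0.42) and did not pass, while Acmsd passed as lower. Mfap3l, 87183 bp from Aadat, was at -0.44 (-0.78 to -0.10) and did not pass. Whether position had a part in any of these ratios was not tested.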
